A study of Mus musculus with 6 samples.

Results

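Iron enters most cells as transferrin-bound metal, is stored in ferritin, leaves through ferroportin, and is built into heme or released from it. A set of 10 mouse genes of this handling was described in lung tumors: the importers Tfrc, Slc11a2 and Slc11a1, the ferritin chains Fth1 and Ftl1, the exporter Slc40a1, the heme genes Hmox1 and Fech, and the iron sensors Ireb2 and Aco1. A gene belonged to the set when the array's gene name equalled its symbol on a probe that was no control. This found all 10 among 36870 gene names, on 17 probes, and each of the 10 was among the 20475 genes tested.

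The tumors came from C57BL/6J mice that carried a floxed Ror1 gene (Ror1f/f), CAG-CreER, a tamoxifen-activated Cre recombinase under the broadly active CAG promoter, and SPC-hEGFRdel746-750, a mutant human EGFR under the surfactant protein C promoter of alveolar type 2 cells. Both groups carried all of these alleles. One group was given tamoxifen and the other corn oil over 4 weeks, from 16 to 20 weeks of age, and RNA was taken from lung tumor at the later age. RNA of a tamoxifen sample and of its like-numbered oil sample was read together on 2 arrays of opposite dye, so the 3 and 3 samples make 3 couples on 6 arrays. The series title asks about Ror1 in lung adenocarcinoma and mentions HIF-1α, a transcription factor stabilised when oxygen is low. Whether a numbered sample was a single animal or a pool is not in the labels, so errors measure only the spread between these samples, which may be technical.

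Control of iron genes runs mostly through the messenger RNA. When iron is scarce, the iron regulatory proteins, encoded by Aco1 and Ireb2, bind hairpins called iron-responsive elements, which stabilises Tfrc mRNA and blocks translation of the ferritin and ferroportin mRNAs. Ferritin and ferroportin protein can therefore change while their mRNA, the quantity measured on these arrays, does not. Transcription adds further layers: HIF-1 acts on Tfrc, and NRF2 and the heme-sensing repressor BACH1 act on Hmox1 and the ferritin genes. In the lung, macrophages hold much of the iron and heme traffic, and red blood cells bring hemoglobin.

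The sequences that bear on the finding are the probe stretches that repeated or failed to repeat a gene's result, and the start of Tfrc. The array carries 60-base probes, printed here in the transcript's sense with positions on mouse build mm9, all in lower case since no part of them is singled out. The files give no exon or UTR annotation for them. Each of the 4 shown has at least 1 reading frame without a stop codon. The Tfrc probe at chr16:32620470-32620529 is the second of the gene's probes, and its ratio was close to that of the first. The Ftl1 probe at chr7:52714014-52714495 covers 482 bases of genome with 60 bases of sequence, so it crosses a splice junction, and it also repeated the first probe. The Slc11a2 probe at chr15:100240516-100240575 lies near the start of the transcript and the Aco1 probe at chr4:40114200-40122732 crosses a junction, and both gave a mean near 0.
Tfrc: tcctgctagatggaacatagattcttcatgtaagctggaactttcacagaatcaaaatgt
Ftl1: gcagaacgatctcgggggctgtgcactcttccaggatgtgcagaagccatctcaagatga
Slc11a2: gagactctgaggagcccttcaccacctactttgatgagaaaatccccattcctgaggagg
Aco1: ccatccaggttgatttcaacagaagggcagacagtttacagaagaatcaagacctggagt

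The promoter of Tfrc is shown because the gene was the only one of the set with 1 sign on all arrays. A further reason is that HIF-1, named in the series title, binds a core that can read ACGTG. Only this form of the core was searched. RefSeq windows of 300 bases, from 250 before to 50 after a transcript start on build GRCm38.p6, were matched by symbol for 6 of the 10 genes (Aco1, Fth1, Ftl1, Ireb2, Slc11a1 and Tfrc), in 8 windows. On either strand, ACGTG occurred in both overlapping Tfrc windows, as 1 and the same match, and in none of the other windows of the set. It was present in 19.62% of 32851 windows of all genes. The antioxidant response element that NRF2 binds, searched as TGACNNNGC on both strands, occurred in none of the 8 windows and in 12.39% of all windows. These are matches of letters and not sites shown to be bound. The stretch that holds the Tfrc match is chr16:32608872-32608951 on the plus strand of GRCm38.p6, with the match at bases 23 to 27 in capitals.
Tfrc promoter: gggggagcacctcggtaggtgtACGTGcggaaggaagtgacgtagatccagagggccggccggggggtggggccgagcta

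Facts of the whole series bear on how these genes can be read. Detection was even over the arrays, with 51.79% to 58.81% of probes called above background in a channel and 0 saturated spots. The Ror1 probe read higher in the tamoxifen sample of every couple (log2 ratio 0.58, 0.44 and 0.18). The labels do not name the floxed exons, so this probe does not check the deletion, and every direction below is that of the labels. The alveolar type 2 markers were bright, with a summed log2 signal of 19.20 to 19.21 in the tamoxifen samples and 19.46 to 19.52 in the oil samples. Couple 1 set a sample with signal of the Y-linked gene Eif2s3y (log2 signal 9.73, tamoxifen) against one with little (6.01, oil). Couple 2 was low on both sides (6.20 and 6.06) and couple 3 high on both (10.70 and 10.07). The X-linked gene Xist ran the opposite way, at 6.62 (tamoxifen) against 8.74 (oil) in couple 1. It read 9.09 and 8.99 in couple 2, and 6.08 and 5.98 in couple 3. Whether this moves any iron gene was not tested. In tumor tissue, fewer cells of a type and less RNA per cell cannot be told apart.

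No iron gene passed the test. Tfrc, about 1.38-fold lower with tamoxifen, was the only gene of the set with 1 sign on all 6 arrays. Ftl1, 1.27-fold lower, was the other gene with every tamoxifen sample below every oil sample. The largest mean differences belonged to Hmox1 and Slc40a1, the heme-degrading enzyme and the iron exporter, but these were lower in couples 1 and 3 and higher in couple 2. Ireb2 was slightly higher in all couples. limma with Benjamini-Hochberg adjustment over all genes called 0% of 20475 genes at an adjusted p of 0.05, with a lowest adjusted p of 0.41 among all genes and 0.69 within the set. At an unadjusted p under 0.05, 7.01% of all genes passed and 2 of the 10, Tfrc and Ftl1. When the 6 arrays were fitted with the couple as a random block, 56 genes were called, 0 of them in the set. The adjusted p of Tfrc from limma was then 0.083 (0.21 with a dye term, with 9 genes called). That fit enters both dye-swapped arrays of a couple, which the main test averages, and uses 1 within-couple correlation for all genes. The correlation was 0.64 without the dye term and 0.89 with it.

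**Figure D1:**
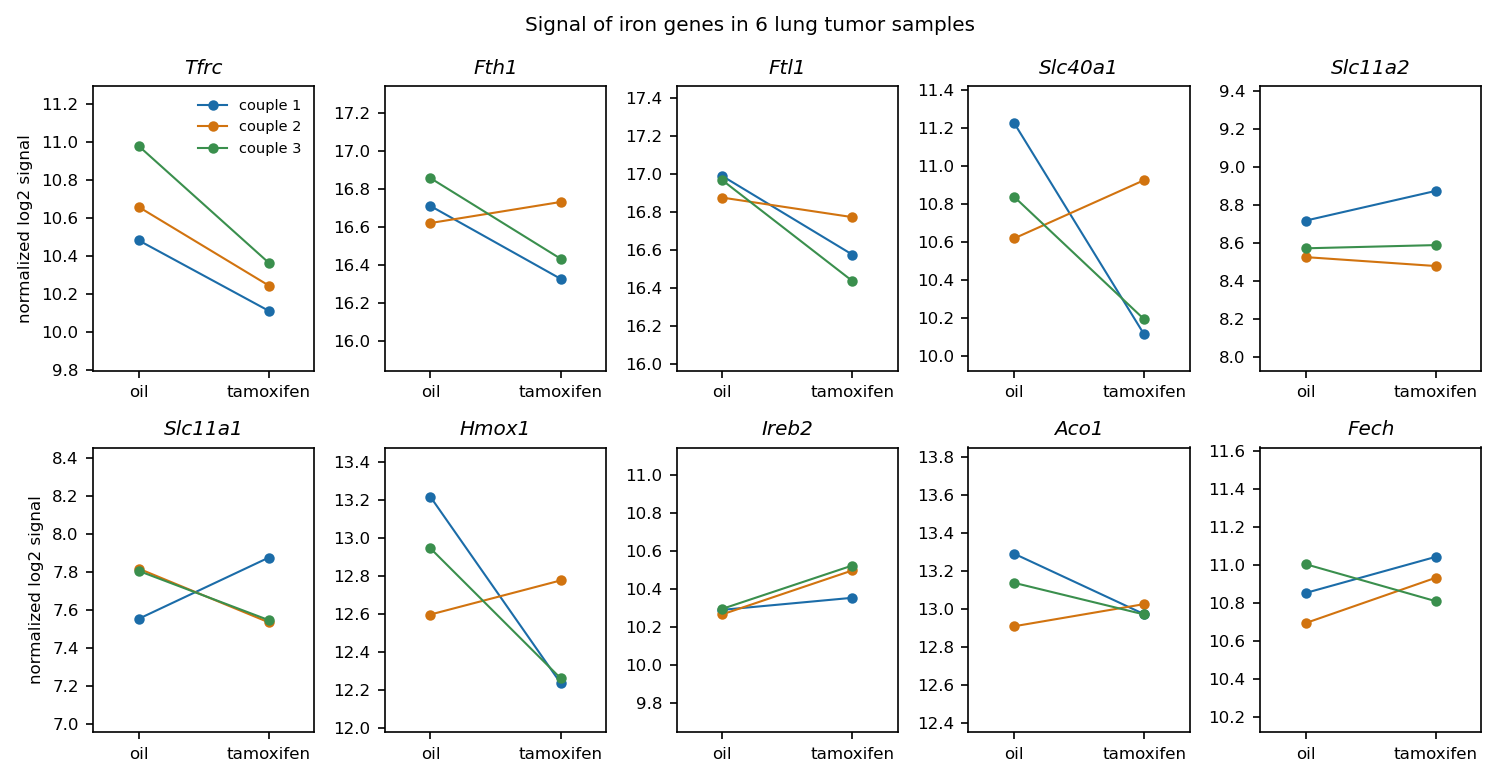
Each panel plots the normalized log2 signal of 1 gene (vertical axis, the same height of 1.5 log2 units in each panel but with different limits) in the 3 oil and 3 tamoxifen samples, with a line joining the samples of a couple. The 3 lines of Tfrc and Ftl1 run down and those of Ireb2 run up, while for Fth1, Slc40a1, Hmox1 and Aco1 the line of couple 2 runs against the other two.

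Import of transferrin-bound iron depends on Tfrc, the transferrin receptor, which carries iron-loaded transferrin into the endosome. Its normalized log2 signal was 10.48, 10.66 and 10.98 in oil samples 1, 2 and 3, and 10.11, 10.24 and 10.36 in the tamoxifen samples of the same numbers. The highest tamoxifen sample lay below the lowest oil sample, so the groups did not overlap. Tamoxifen over oil, the log2 ratio was -0.37, -0.41 and -0.61 in the 3 couples, a mean of -0.47 ± 0.13 (SD, n = 3) with a 95% interval of -0.70 to -0.23. The interval is from limma's moderated error and is not adjusted for the number of genes. limma gave Tfrc an unadjusted p of 0.00418, rank 110 of 20475 genes, and an adjusted p of 0.69.

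The dye swap left the Tfrc result in place. With tamoxifen in Cy5 its log2 ratio was -0.43, -0.45 and -0.61 in couples 1, 2 and 3, and with tamoxifen in Cy3 it was -0.31, -0.38 and -0.62. Across all genes, 7.21% were lower on all 6 arrays and 6.04% were higher on all 6. In the set, Tfrc was the only gene lower on all 6, and 0 were higher. The second Tfrc probe, whose sequence is printed above, gave -0.29, -0.49 and -0.68, a mean of -0.49 ± 0.19 (SD, n = 3). It was also below 0 on all 6 arrays, but it was split by dye. With tamoxifen in Cy5 it read -0.57, -0.69 and -0.82, and with tamoxifen in Cy3 -0.01, -0.28 and -0.53. Leaving out 1 couple at a time moved the mean of Tfrc only between -0.51 and -0.39.

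Among all genes tested, those whose ratios on the 6 arrays lay nearest to Tfrc included Cyb5r3 and 4633401B06Rik. Their root mean square distance from Tfrc was 0.089 and 0.093 on the log2 scale. Cyb5r3, a cytochrome b5 reductase, had a mean log2 ratio of -0.46 ± 0.14 (SD, n = 3), with -0.33, -0.44 and -0.62 in couples 1, 2 and 3. A total of 107 of the 20475 genes tested lay within 0.2 of Tfrc. No such count was made for other genes, so how common this is cannot be judged.

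Lists of cell-type markers were read beside Tfrc, and 0 of their genes passed the test. Of 12 alveolar type 2 markers, 10 had a mean log2 ratio below 0, against 51.24% of all genes, with couple medians of -0.12, -0.27 and -0.16. Their summed signal did not overlap between groups, as given above, but much of it came from bright surfactant genes (Sftpc, Sftpd, Sftpa1 and Sftpb). Other markers of the list differed from these. Abca3 and Nkx2-1 had means of -0.04 and -0.03, and Epcam was higher in all couples (0.46, 0.33 and 0.06). The summed signals of the storage and heme breakdown lists, described below, did not overlap either, but sums follow the brightest genes. For storage they were 16.30 to 16.34 with tamoxifen and 16.35 to 16.41 with oil. The bright Pcbp1 and Pcbp2 of that list had means of -0.02 and -0.07. For heme breakdown they were 14.60 to 14.84 with tamoxifen and 14.91 to 14.92 with oil. Hp, its brightest gene, overlapped between the groups. Of 8 fibroblast markers, 6 were below 0 and 4 were lower in all couples, against 16.4% of all genes. Of 8 endothelial markers, 7 were above 0. Of 11 monocyte markers tested, 10 were below 0, but only 1, the bright Lyz2, was lower in all couples, and the list's couple medians were -0.056, -0.28 and 0.023. Their summed log2 signal was 16.92 to 17.52 with tamoxifen and 17.75 to 17.96 with oil, but much of it came from Lyz2. Lyz2 alone read 16.2 to 17.1 with tamoxifen and 17.3 to 17.7 with oil. Ly6c2 (0.21, -0.20 and -0.57), Ccr2 (0.01, 0.04 and -0.10) and Cx3cr1 (0.73, -0.55 and 0.08) each had mixed signs over the couples. Proliferation genes often go with Tfrc because dividing cells import iron. All 12 listed had a mean above 0, but their couple medians were -0.21, 0.12 and 0.98. Only 2 of the 12 were higher in all couples, against 13.8% of all genes. The part of these cell types and of proliferation in the Tfrc result was not tested.

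Slc11a2 encodes DMT1, which moves ferrous iron across the endosomal membrane and takes up dietary iron. On its brightest probe the log2 signal was 8.72, 8.52 and 8.57 in the oil samples and 8.87, 8.48 and 8.59 in the tamoxifen samples, with full overlap. The mean log2 ratio was 0.04 ± 0.10 (SD, n = 3), with a 95% interval of -0.18 to 0.26 and an adjusted p of 0.92 from limma. A difference of more than 0.26 in either direction lies outside that interval for this probe.

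The 4 probes of Slc11a2 disagreed. The probe assigned to the transcript NM_001146161, at chr15:100223347-100223406, read -0.25, -0.29 and -0.31 in couples 1, 2 and 3, a mean of -0.28 ± 0.03 (SD, n = 3), and was lower on all 6 arrays. The probes assigned to NM_008732 gave means of 0.04, 0.12 and -0.02. Within couples, the NM_001146161 probe lay below the brightest one by a log2 difference of -0.41, -0.24 and -0.33. It also lay below each of the other two in every couple, with mean differences of -0.41 ± 0.23 and -0.27 ± 0.10 (SD, n = 3). An exact two-sided sign-flip permutation test of any of these differences gives p = 0.25, which is the smallest that 3 couples allow. In a fit over 31277 detected probes, limma gave this probe an unadjusted p of 0.0129 and an adjusted p of 0.69. It was singled out after its values were seen. Slc11a2 is known to make mRNAs with and without an iron-responsive element at their end, and the files do not say which of them each probe reads.

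Slc11a1 encodes NRAMP1, a metal transporter of the phagosome in macrophages and neutrophils, and C57BL/6 mice are known to carry a loss-of-function allele of it. Its log2 signal was 7.55, 7.82 and 7.81 in the oil samples and 7.88, 7.53 and 7.55 in the tamoxifen samples. The tamoxifen sample was the higher of couple 1 and the lower of couples 2 and 3. The mean log2 ratio was -0.07 ± 0.34 (SD, n = 3; adjusted p from limma 0.92). Leaving out couple 2 or couple 3 turned its sign, to 0.03 and 0.02.

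**Figure D2:**
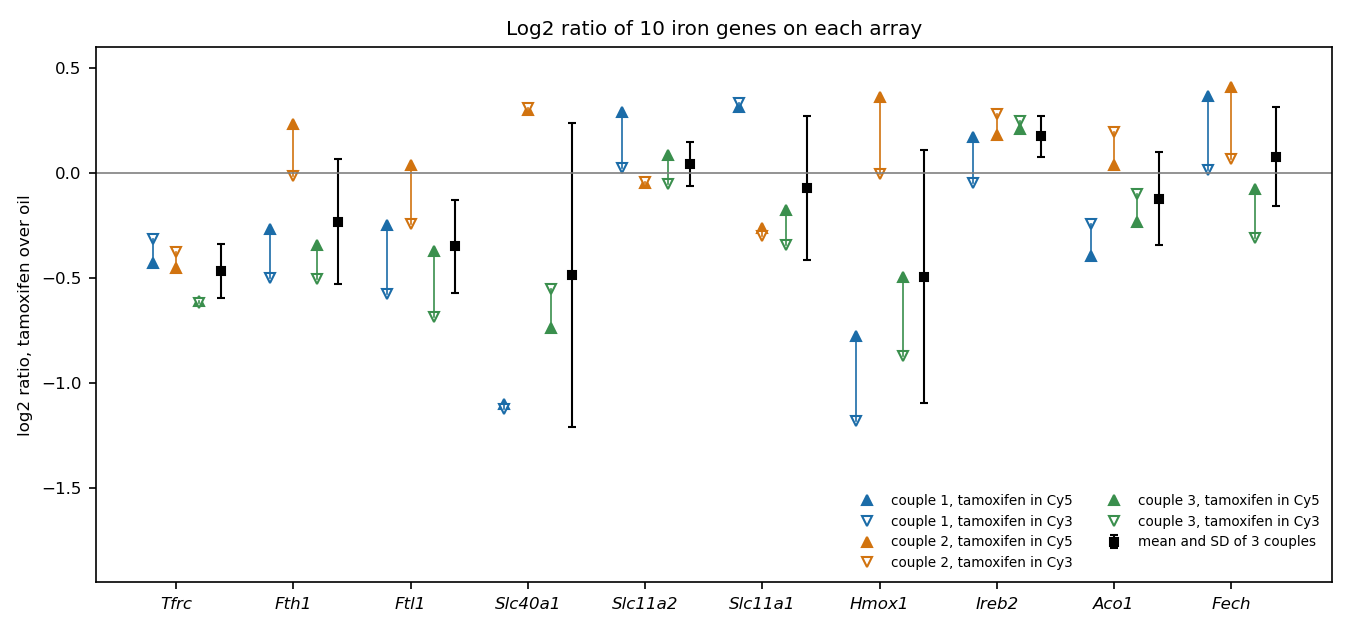
The log2 ratio of tamoxifen over oil (vertical axis) is plotted for the 10 iron genes on each of the 6 arrays, with filled and open triangles for the 2 dye orientations of a couple joined by a line, and a square with bars for the mean and SD of the 3 couples. All 6 triangles of Tfrc lie between -0.31 and -0.62, those of Slc40a1 run from -1.13 to 0.31, and those of Hmox1, Ftl1, Fth1 and Fech are split by dye in the same direction in every couple.

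Ferritin stores iron in a shell of heavy chains, from Fth1, which oxidise iron, and light chains, from Ftl1, which help it mineralise. The log2 signal of Ftl1 was 16.99, 16.87 and 16.97 in oil samples 1, 2 and 3 and 16.57, 16.77 and 16.43 in the tamoxifen samples. The groups did not overlap, but the gap in couple 2 was small. The log2 ratios of -0.41, -0.10 and -0.53 averaged -0.35 ± 0.22 (SD, n = 3), with a 95% interval of -0.64 to -0.05. limma gave Ftl1 an unadjusted p of 0.0288 and an adjusted p of 0.69. The mean was -0.21 with median centring in place of loess and -0.20 on the arrays with tamoxifen in Cy5, with unadjusted p of 0.15 and 0.14. With the scanner software's ratios the unadjusted p was 0.063, and without couple 1 or couple 3 it was 0.10 and 0.12. The second Ftl1 probe, printed above, gave -0.37, -0.17 and -0.61, with a mean of -0.38 ± 0.22.

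Fth1 overlapped between the groups. Its log2 signal was 16.71, 16.62 and 16.86 with oil and 16.33, 16.73 and 16.43 with tamoxifen. The heavy chain was thus lower in couples 1 and 3, by log2 ratios of -0.38 and -0.42, and higher in couple 2, by 0.11. Its mean was -0.23 ± 0.30 (SD, n = 3) with an adjusted p of 0.73 from limma. The light chain also had its smallest difference in couple 2. Ferritin genes have many processed copies in the genome, and reads of such copies by these probes cannot be separated here.

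Dye orientation touched both ferritin chains. With tamoxifen in Cy5 rather than Cy3, the ratio of Ftl1 was higher by 0.33, 0.28 and 0.31 in the 3 couples, and that of Fth1 by 0.23, 0.25 and 0.16. On the couple 2 array with tamoxifen in Cy5, Ftl1 read 0.04, the only one of its 6 arrays above 0. The second Ftl1 probe leaned the opposite way with dye. A dye difference of 1 sign in all 3 couples was common, with 60.9% of all genes tested and 5 of the 10 iron genes. It cancels in the couple means.

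Across the set, 2 of the 10 genes, Tfrc and Ftl1, were lower in all 3 couples, against 16.4% of all genes. Only Ireb2 was higher in all 3, against 13.8%. Groups without overlap were found for 7.14% of all genes with tamoxifen lower, and for Tfrc and Ftl1 in the set. They were found for 5.19% with tamoxifen higher, and for Ireb2. Over 10 genes, the counts of 2 and 1 in all couples are close to the shares of all genes. The median log2 ratio of the 10 was -0.18, against -0.0039 for all genes, and 7 of the 10 were below 0, against 51.24% of all genes.

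Slc40a1 encodes ferroportin, the one known exporter of iron from cells. Its log2 signal was 11.23, 10.62 and 10.84 in oil samples 1, 2 and 3 and 10.11, 10.92 and 10.19 in the tamoxifen samples. Tamoxifen sample 2 stood above its partner and above oil sample 3, while the other two stood below all oil samples. The log2 ratios were -1.11, 0.31 and -0.65, a mean of -0.48 ± 0.72 (SD, n = 3; adjusted p from limma 0.73). Only 2.61% of all genes varied more between couples. With tamoxifen in Cy5 the arrays of couples 1, 2 and 3 read -1.10, 0.30 and -0.74, and with tamoxifen in Cy3 they read -1.13, 0.31 and -0.55. A second, dim probe of another transcript, well above background in 3 of 6 tamoxifen readings, gave -0.23, 0.00 and -0.24.

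Hmox1 encodes heme oxygenase-1, which opens heme and frees its iron. Oil samples 1, 2 and 3 had log2 signals of 13.22, 12.60 and 12.95, and the tamoxifen samples 12.24, 12.78 and 12.26. Tamoxifen samples 1 and 3 stood below every oil sample, and tamoxifen sample 2 stood above oil sample 2. The log2 ratios of -0.98, 0.18 and -0.68 gave a mean of -0.49 ± 0.60 (SD, n = 3; adjusted p from limma 0.70). Its ratio was higher by 0.40, 0.36 and 0.38 with tamoxifen in Cy5, so in couple 2 the 2 arrays read 0.36 and -0.0032.

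Slc40a1, Hmox1, Fth1 and Aco1 shared the order of lower in couples 1 and 3 and higher in couple 2. That order, singled out after the values were seen, held for 4 of the 10 genes and for 11.3% of all genes tested. The median of the 10 genes was -0.34, 0.11 and -0.34 in couples 1, 2 and 3, and 6, 4 and 8 of them were below 0. Leaving out couple 2, whose values run against the others, leaves 6 of the 10 genes lower in both remaining couples, against 27.7% of all genes. It brings 5 of the 10 to an unadjusted p under 0.05 in limma, against 6.38% of all genes. Couple 2 was picked from these same values, so the counts without it are a description and cannot serve as a test. Without couple 1 and without couple 3, 3 and 2 of the 10 were lower in both remaining couples, against 26.2% and 29.2% of all genes. In each of these fits 1 of the 10 had an unadjusted p under 0.05, against 4.86% and 7.4% of all genes. The mean of Slc40a1 was -0.17, -0.88 and -0.40 without couple 1, 2 and 3, and that of Hmox1 -0.25, -0.83 and -0.40.

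Markers of alveolar macrophages, cells that take up and recycle iron in the lung, followed the same order. Of 15 such markers tested of 16 listed, 12 were lower in couples 1 and 3 and higher in couple 2, and the list's couple medians were -1.0, 0.25 and -0.31. Their summed log2 signal was 17.70, 17.00 and 17.74 in oil samples 1, 2 and 3 and 16.26, 18.11 and 16.92 in the tamoxifen samples. The scavenger receptor Marco had ratios of -2.05, 2.07 and -3.01, and the fatty acid-binding Fabp4 had -2.39, 0.94 and -1.37. Of 10 neutrophil markers tested, 3 had this order, among them S100a8 with -0.21, 1.26 and -0.61, and the list's couple medians were -0.12, 0.065 and 0.0011. The part of macrophages in the ratios of Slc40a1, Hmox1 and the ferritin chains was not tested.

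**Figure D3:**
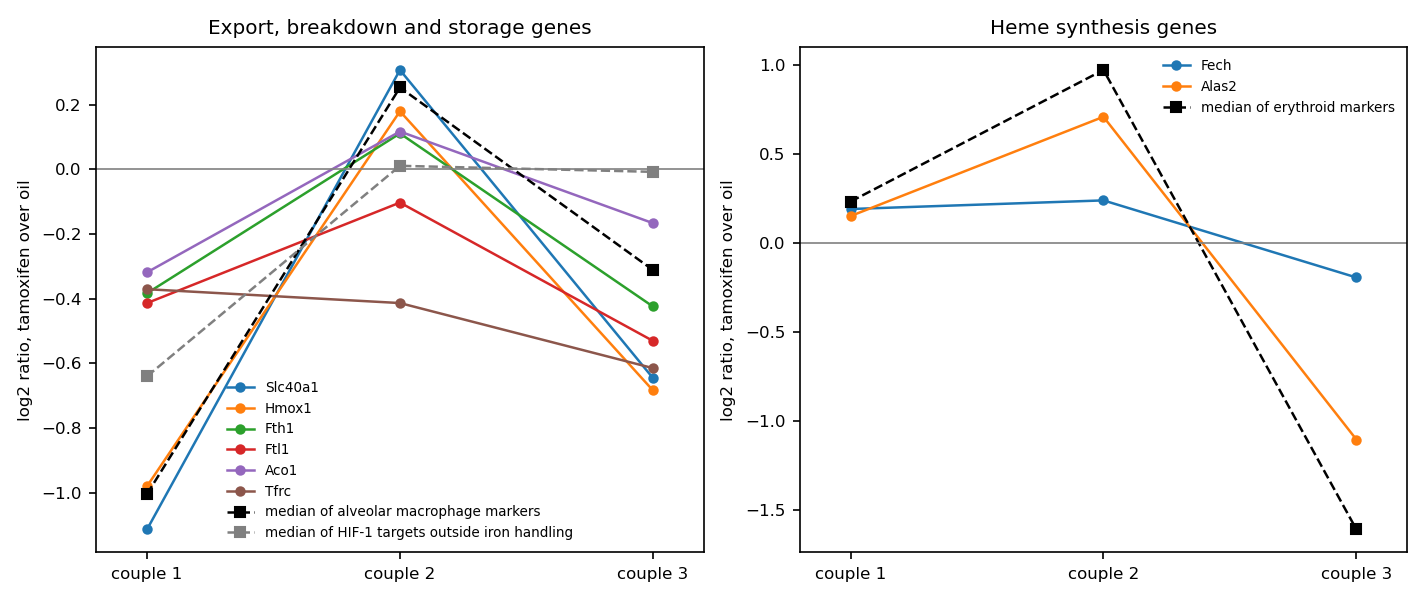
The log2 ratio of tamoxifen over oil (vertical axis) is shown by couple (horizontal axis) for single genes, and dashed lines with squares give the median of marker or target lists; the panels have different vertical scales. On the left, Slc40a1, Hmox1, Fth1 and Aco1 peak above 0 in couple 2 as do the alveolar macrophage markers, while Tfrc stays between -0.37 and -0.61. On the right, Fech and Alas2 are lowest in couple 3, as is the median of the erythroid list, which globin genes set.

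The other genes of heme breakdown and uptake gave no common direction. Of 11 tested of 12 listed, 6 were below 0, the list median was -0.09, and 0 passed the test. Hp, haptoglobin, which binds free hemoglobin, had ratios of -1.15, -0.20 and -0.01, and Lrp1, the receptor for heme-hemopexin, had -0.42, -0.06 and -0.13. Slc46a1, a carrier of folate and heme, had 0.80, 0.37 and -0.06. The constitutive heme oxygenase Hmox2 had a mean of 0.01, the biliverdin reductase Blvrb one of -0.18, and the heme exporter Flvcr1, named Mfsd7b on the array, one of -0.09. Cd163, the hemoglobin scavenger receptor of macrophages, was not tested because its probe was too dim.

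Export and its systemic control could be read for 4 of 11 listed genes, and 0 of them passed the test. Cp, ceruloplasmin, oxidises iron as it leaves through ferroportin. It had log2 ratios of -1.46, 0.15 and -0.41, with the same order over the couples as Slc40a1. Heph, a membrane relative of Cp, had a mean of -0.04, and the BMP receptor Bmpr1a one of 0.23. Hamp, which encodes the hormone hepcidin that removes ferroportin from the membrane, was too dim to test, as Bmp6 and Tmprss6 were.

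Fech encodes ferrochelatase, which sets iron into protoporphyrin as the last step of heme synthesis. Its log2 signal was 10.85, 10.69 and 11.00 in the oil samples and 11.04, 10.93 and 10.81 in the tamoxifen samples. The tamoxifen sample was higher in couples 1 and 2 and lower in couple 3, and the groups overlapped. The mean log2 ratio was 0.08 ± 0.24 (SD, n = 3), with a 95% interval of -0.23 to 0.38 and an adjusted p of 0.89 from limma. Its ratio was higher with tamoxifen in Cy5 by 0.35, 0.34 and 0.23. With only the arrays that had tamoxifen in Cy3 its mean was -0.08.

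All 19 other genes of heme synthesis and mitochondrial iron were tested, 10 were below 0, the median was -0.01, and 0 passed. Alas1, the first and rate-limiting enzyme outside red cells, had log2 ratios of -0.31, -0.07 and -0.62, a mean of -0.33 ± 0.27 (SD, n = 3; adjusted p from limma 0.69). Its erythroid form Alas2 had 0.15, 0.71 and -1.11. The couple medians of the erythroid list were 0.23, 0.97 and -1.61 over 9 tested of 16 listed, and globin genes set them. Among these, Hba-a1 had 0.24, 0.97 and -1.61. The other markers tested did not all run with Alas2. Ahsp had -1.22, 1.24 and -1.74. Epor (-0.32, 0.03 and 0.12), Ermap (-0.31, -0.15 and 0.06) and Tspo2 (0.04, -0.02 and 0.05) were highest in couple 3. The summed log2 signal of the erythroid list spanned 14.50 to 15.84 with tamoxifen and 14.29 to 16.39 with oil. The defining markers Slc4a1, Klf1, Gata1, Rhag and Kel were too dim to test, while Epb4.2 matched no name on the array. Fech, which red cell precursors also use, was lowest in couple 3, as Alas2 was. The part of blood in that value was not tested.

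Aco1 and Ireb2 encode iron regulatory proteins 1 and 2. IRP1 turns into a cytosolic aconitase when it holds an iron-sulfur cluster, and IRP2 is broken down when iron is plentiful. Log2 signals of Ireb2 were 10.29, 10.27 and 10.30 in oil samples 1, 2 and 3, a narrow range, and 10.36, 10.50 and 10.53 in the tamoxifen samples. All tamoxifen samples stood above all oil samples, by the least in couple 1. The log2 ratios of 0.06, 0.23 and 0.23 gave a mean of 0.17 ± 0.10 (SD, n = 3), a fold of 1.13, with a 95% interval of -0.04 to 0.39 and an adjusted p of 0.70 from limma. On 1 of 6 arrays, that of couple 1 with tamoxifen in Cy3, it read -0.05. The mean of Ireb2 stayed above 0 in all 18 alternatives of the processing, between 0.15 and 0.23.

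Aco1 had log2 signals of 13.29, 12.91 and 13.14 with oil and 12.97, 13.02 and 12.97 with tamoxifen. The tamoxifen samples differed little among themselves, and the oil samples lay on both sides of them. The mean log2 ratio was -0.12 ± 0.22 (SD, n = 3; adjusted p from limma 0.81), with couples at -0.32, 0.12 and -0.17. The second probe, whose sequence is given above, read -0.08, 0.21 and -0.01, with a mean of 0.04, so the probes of Aco1 agree on the order of the couples but not on the sign of the mean.

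**Figure D4:**
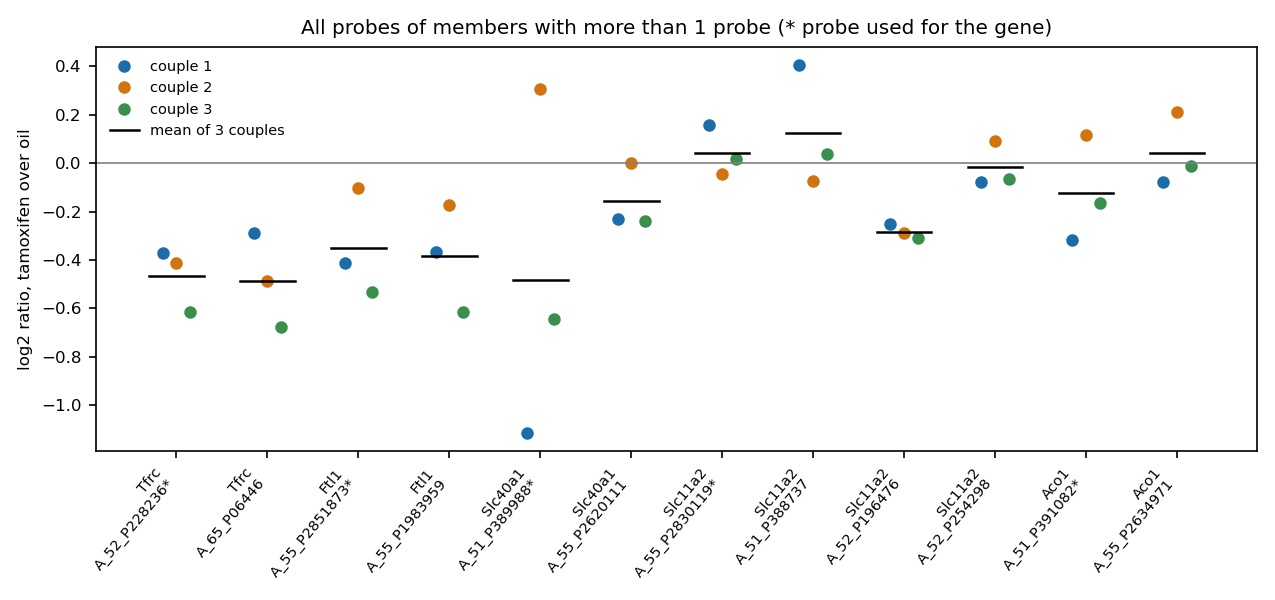
Each column is 1 probe of the 5 iron genes with more than 1 probe, with the log2 ratio of tamoxifen over oil (vertical axis) in the 3 couples as points and their mean as a bar; a star marks the probe that stood for the gene. The 2 probes of Tfrc and the 2 of Ftl1 have means between -0.35 and -0.49, and the 4 of Slc11a2 run from -0.28 to 0.12.

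The other genes of the transferrin cycle and iron import were tested for 13 of 15 listed, 9 were below 0 and the median was -0.08, with 0 passing the test. Trf, transferrin itself, had log2 ratios of -0.04, 0.56 and -0.09. The endosomal ferrireductase Steap3 had a mean of -0.03, and the importer Slc39a14 one of 0.16 ± 0.13 (SD, n = 3). At the ends of the list by p were Lcn2, lipocalin-2, which binds iron-carrying siderophores, and Scara5, a ferritin receptor. Lcn2 was lower in every couple (-0.54, -0.18 and -0.88), and Scara5 higher in every couple (0.69, 0.23 and 0.48), each with an adjusted p of 0.69 from limma. Without couple 3 the list median was 0.01, and leaving out either of the others kept it below 0.

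Storage, chaperone and sensing genes were tested for 11 of 12 listed, of which 7 were below 0, with a median of -0.07 and 0 passing. Ncoa4, which delivers ferritin for breakdown, had log2 ratios of -0.73, 0.21 and 0.03. Fbxl5, which targets IRP2 for breakdown, had a mean of 0.05 ± 0.04 (SD, n = 3). Bach1, the heme-sensing repressor of Hmox1 and the ferritin genes, had -0.38, -0.35 and -0.01. Skp1a, which works in the same ligase as Fbxl5, had 0.23, 0.23 and 0.10.

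Iron-sulfur cluster assembly, the other large use of mitochondrial iron, was tested for all 21 listed genes, with 8 below 0, a median of 0.05 and 0 passing. The scaffold gene Iscu had log2 ratios of -0.35, 0.03 and -0.22. Isca1, which helps form larger clusters, was lower in all couples at -0.83, -0.10 and -0.38, with an adjusted p of 0.69 from limma. Mms19, which passes clusters to DNA repair enzymes, was higher in all couples at 0.24, 0.13 and 0.15.

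**Figure D5:**
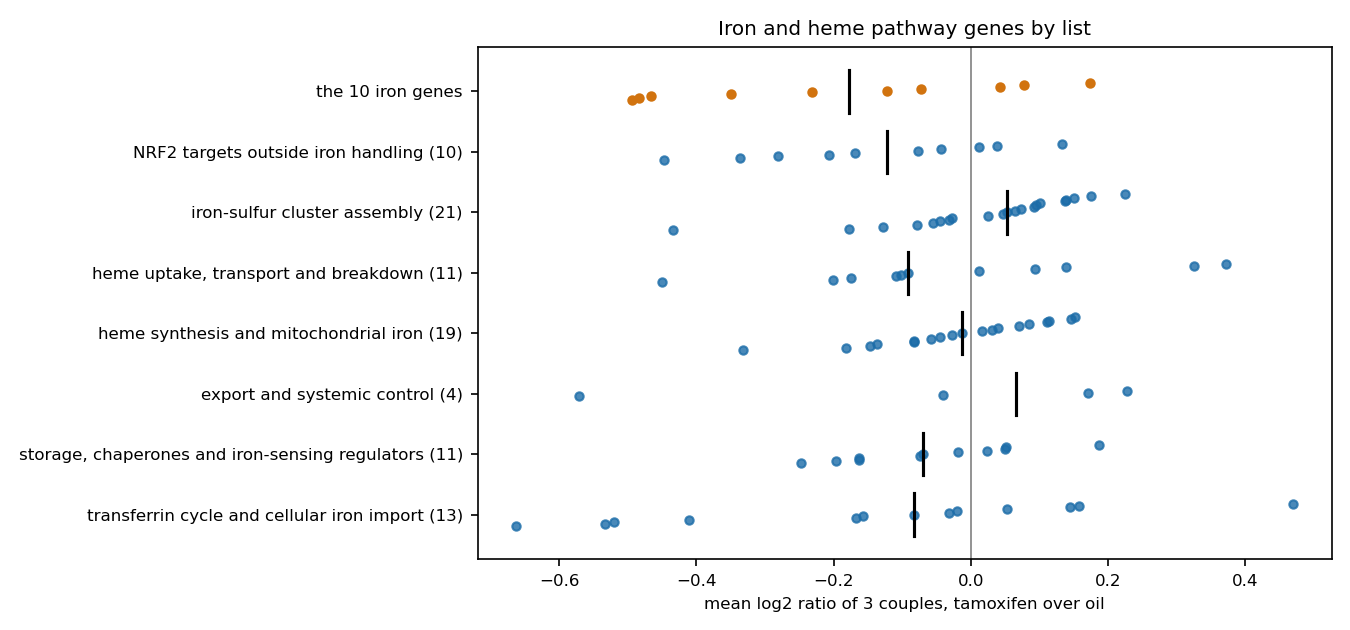
Each point is the mean log2 ratio of tamoxifen over oil over the 3 couples for 1 gene (horizontal axis), grouped by list, with the number of genes tested in brackets and a bar at each list's median. The medians of the 7 lists drawn, which do not include the HIF-1 targets, run from -0.12 to 0.07, and that of the 10 iron genes is -0.18.

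Targets of the 2 transcription factors tied to iron genes were set beside them. Of 10 NRF2 targets outside iron handling, 7 were below 0, the median was -0.12 and 0 passed the test. The list's couple medians were 0.069, -0.17 and -0.35, and its median was -0.32 without couple 1 and 0.0024 without couple 3. The quinone reductase Nqo1 had log2 ratios of -0.29, -0.33 and -0.72, and Gsr, glutathione reductase, had -0.11, -0.12 and -0.39. Of 15 HIF-1 targets outside iron handling, 13 had a mean below 0 and the median over the 15 was -0.38, with 0 passing. Their couple medians were -0.64, 0.01 and -0.01, and without couple 1 the list median was 0.0083. In all 3 couples 5 of the 15 were lower, Bnip3, Egln1, Ndrg1, Lox and P4ha1, against 16.4% of all genes. Of these, Lox, a collagen cross-linking enzyme, had -0.64, -0.60 and -0.65, and Egln1, an oxygen sensor of HIF, had -0.71, -0.34 and -0.49.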

How the data were processed

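The deposited scanner files hold spot intensity (mean foreground and median background per channel), unnormalized, and, per the file headers, the scanner software's background-subtracted, dye-normalized log10 ratio (Cy5 over Cy3). The submitters' processing notes name Agilent Feature Extraction 12.0.3.1. The table the authors deposited for the series holds log2 ratios, with a slope of 1.00 on the scanner ratio for every array and column medians of 0.14, -0.14 and -0.06 (tamoxifen in Cy5) and 0.13, -0.15 and -0.01 (tamoxifen in Cy3) for couples 1, 2 and 3. The submitters' statistical test is not stated in the labels. Probe positions are on mm9.

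In limma 3.58.1 (R 4.3.3), background was corrected by normexp with an offset of 50 over 62976 spots. Loess followed within arrays, with 3671 control spots at weight 0, and 89 to 132 spots per array flagged as outliers were left out. The offset pulls ratios of dim probes toward 0. The brightest probe stood for a gene, tested if in at least 2 couples both arrays called it well above background for tamoxifen or for oil. The 2 arrays of a couple were averaged, and couples were tested against 0, two-sided, by lmFit and eBayes with Benjamini-Hochberg adjustment over 20475 genes at 0.05. Sample levels are log2 signals per channel after Aquantile. The number of arrays limits precision, with a median SE of 0.098 per gene. The test was also run on simulated data whose spread was drawn from these couples.

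The 10 genes, the pathway and marker lists and the tests were chosen with earlier results of these data known. Named beside the 10 were fixed pathway genes, the 2 of each list with the smallest p on each side of 0 where a result called for them, and the 3 genes nearest to any of the 10 with 1 sign on all arrays; some of these are not reported here. Marco, Fabp4, S100a8, Bnip3, Ndrg1, P4ha1, the Slc11a2 probe of NM_001146161 and the order of couples were picked after their values were seen. Hba-a1, Epor, Ly6c2 and Ccr2 were picked in the same way. Couples share arrays, which pairs samples of the same number, and their deviations from the group means correlated with r of 0.10, 0.16 and 0.16. Samples of unlike number gave r from -0.20 to 0.088, so couple 1 was hardly more alike than the closest of these. Accessions were matched to RefSeq symbols for 14334 of the genes tested. Alternatives changed background, normalization, filter, probe, dye, couple and block.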

Additional observations from a re-analysis of the deposited data

How the results depend on the processing

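With 3 couples, precision was limited by the spread between couples, and no iron gene passed an adjusted p of 0.05 in any of the alternatives run. Tfrc stayed below 0 in all 19 alternatives, from -0.51 to -0.39, with adjusted p from 0.083 to 0.96. The count of all genes called was 0 in 15 of 18 alternatives. It was 56 with a replicate block (couple as a random block over the 6 arrays), 9 when that replicate block also had a dye term, which was added after seeing the data, and 1 with no replicate block for 3 against 3 samples. With 1 couple left out, the count of genes lower in all couples ranged from 2 to 6 of the 10 (26.2% to 29.2% of all genes) and of those higher from 1 to 2 (24.8% to 27.5%). It was 1 lower with only tamoxifen in Cy5 (16% of all genes), and 4 lower and 0 higher with only tamoxifen in Cy3 (20.4% and 13.6%). The sign turned for Slc11a2 (-0.034 with the mean of probes, -0.024 with tamoxifen in Cy3, -0.28 and -0.017 on other probes, -0.015 to 0.087 without 1 couple), for Slc11a1 (-0.27 to 0.032 without 1 couple), for Fech (-0.077 with tamoxifen in Cy3, -0.0024 to 0.21 without 1 couple) and for Aco1 (0.041 on its other probe). Among list medians, median centring in place of loess gave -0.051 for import, 0.013 for storage and -0.059 for heme breakdown. The mean of probes gave -0.052 for heme breakdown. Arrays with tamoxifen in Cy5 gave -0.20 for storage and -0.034 for heme breakdown, and those with tamoxifen in Cy3 gave 0.028 and -0.049. Leaving out 1 couple moved the medians from -0.066 to 0.011 for import, -0.076 to 0.16 for export, -0.19 to 0.020 for heme breakdown, -0.32 to 0.0024 for NRF2 targets and -0.38 to 0.0083 for HIF-1 targets. The cause was not tested. No scaling moved the median of all genes by more than 0.02.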
